A study of Mus musculus with 2 samples.

Results

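Car1, Car2, Cited4, Cnrip1, Nr3c1 and Zfp36l2 are 6 of the 27998 genes in the count matrices, taken by symbol because they are used as markers or regulators of early erythroid progenitors. Their RNA was counted in single cells of 1 liver from a wild-type C57BL/6 mouse embryo (C57BL/6J in the methods) at E12.5 (embryonic day), with no transgene, knockout or treatment. Dead cells, debris and cell doublets were removed by sorting, and the suspension was run on the 10x droplet platform as 2 technical replicates, called library 1 and library 2 here. The cell table assigned 5480 and 5057 cells to hematopoietic stem and progenitor cells (spelled HPSC), erythroid progenitors (Ery), erythroblasts (Eryb), yolk sac-derived primitive erythroblasts (EryP), megakaryocytes (Mk), granulocytic cells (G), monocytes and Kupffer cells (Mo/KC), hepatoblasts (Hepa) and endothelial cells (EC). Ery held the subclusters Ery 1 and Ery 2, and Eryb held Ery 3 to Ery 6, so that HPSC and Ery 1 to Ery 6 form 7 steps of definitive erythropoiesis.

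Definitive red cells of the fetal liver descend from multipotent progenitors through early and then late erythroid colony-forming progenitors, which divide and mature into hemoglobin-filled erythroblasts. Glucocorticoid signaling through Nr3c1 is known to prolong the division of early erythroid progenitors, and the RNA-binding protein Zfp36l2 is known as one of the factors that keep them from maturing. Carbonic anhydrases are among the most abundant red cell enzymes after hemoglobin and interconvert carbon dioxide and bicarbonate.

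All values come from 1 liver, so no test between conditions or steps was possible and no p-value is given. Values are listed for library 1 and then library 2. A level is given as CPM: the unique molecular identifiers (UMIs, each standing for 1 captured RNA molecule) of a gene, summed over the cells of a step, per 1000000 UMIs of those cells. Brackets hold exact 95% intervals, which cover counting error only. The clusters had been computed from the same counts, so differences between steps describe the clusters. Levels of different genes are not compared because capture differs between genes.

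The libraries held 51969226 and 62738015 UMIs in the assigned cells, with a median of 6261 and 9774 per cell, and they shared 31 cell barcodes. Steps differed in depth: the median was 26146 and 25977 UMIs in Ery 1 against 4378 and 7882.5 in Ery 6. To compare shares of cells with a UMI, each cell was therefore thinned to 3600 UMIs. In both libraries the 3 markers checked for each of Eryb, EryP, Mk, G, Mo/KC, Hepa and EC were highest in the cell type they mark, such as the embryonic globin Hbb-y at 527810 and 406241 CPM in EryP. Of the HPSC markers, Cd34 and Kit were highest there, but Myb was higher in G. The Ery markers Klf1 and Gata1 did not single out Ery, since Gata1 was highest in Mk and Klf1 in Eryb in library 1. Globin RNA of all 7 measured globin genes took 1.07% and 2.37% of UMIs in Ery 1, but 58.1% and 78.5% in Ery 6. Free RNA, which droplets take up from the suspension, was read from barcodes of 1 to 50 UMIs. The amount it could have given a step is an upper one, since it takes all Car2 UMIs of the cell type with the least Car2 as free RNA.

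By CPM, 1 of the 6 early erythroid progenitor genes was highest in Ery 1 and 1 in Ery 2, the subclusters of Ery. Other scales, given below, moved the highest step of Car1, Car2 and Cited4. In CPM, Cnrip1 and Zfp36l2 were highest in HPSC, Nr3c1 in Ery 1, Cited4 in Ery 2, Car1 in Ery 3 and Car2 between Ery 4 and Ery 6. The 2 genes highest in HPSC stand beside 32.4% of the 5645 genes with at least 20 CPM in some step of each library, the 1 gene in Ery 1 beside 27.3%, the 1 gene in Ery 2 beside 7.71% and the 1 gene in Ery 3 beside 2.64%. Between HPSC and Ery 1, Car1, Car2, Cited4 and Nr3c1 were at least 2-fold higher in Ery 1 in both libraries, as were 6.63% of those genes, and Cnrip1 and Zfp36l2 were at least 2-fold lower, as were 11.6%. Thus 2 of the 6 genes had their highest level before the erythroid steps, near the share of all genes. The other 4 had more RNA in Ery 1 than in HPSC.

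**Figure D1:**
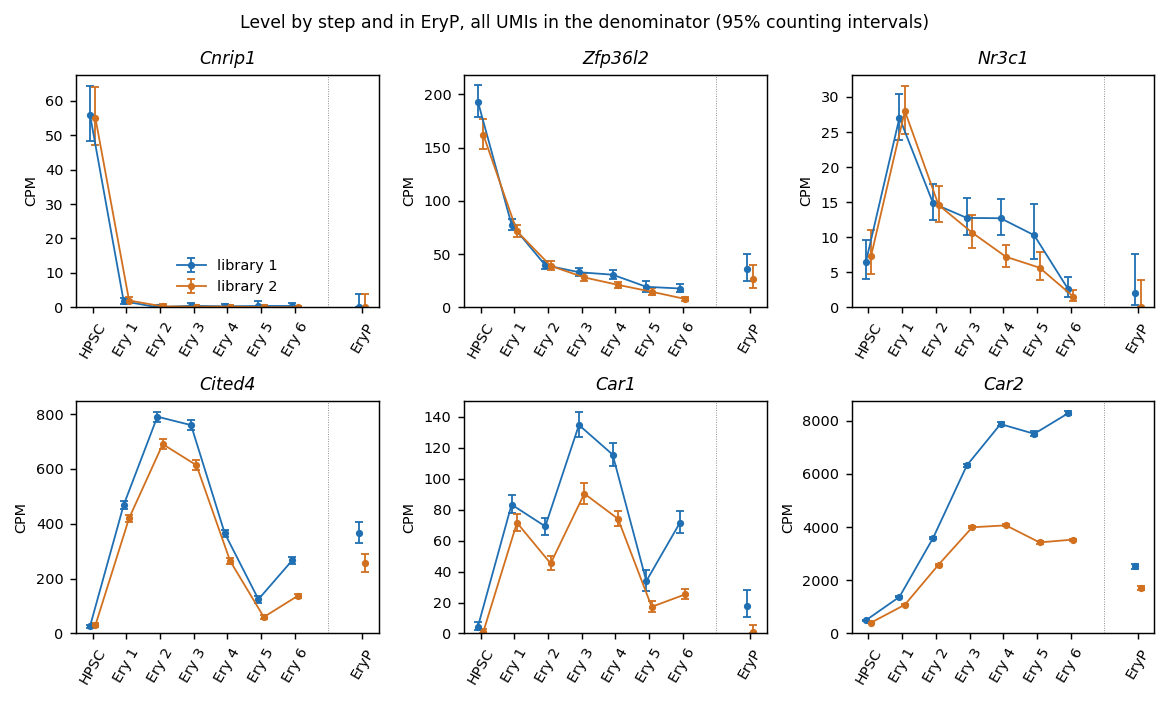
Level of each of the 6 genes (y axis, CPM, linear and starting at 0) at the 7 steps from HPSC to Ery 6 and, set apart, in EryP (x axis); points are the 2 libraries and bars are 95% counting intervals. The highest points move from HPSC for Cnrip1 (56.0 and 55.0 CPM) and Zfp36l2 (193 and 162) through Ery 1 for Nr3c1 (27.0 and 28.0) to Ery 3 for Car1 (135 and 90.4), while Car2 stays high to Ery 6.

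Cnrip1, which encodes a cytoplasmic protein that binds the tail of the cannabinoid receptor CB1, lies on chromosome 11 at 17051586 to 17079371 (build GRCm38, plus strand). It was a transcript of HPSC at 56.0 CPM [48.3 to 64.4] and 55.0 [47.1 to 63.9], from 193 and 172 UMIs. In Ery 1 it stood at 1.72 and 1.94 CPM, from 17 and 18 UMIs. The level in HPSC was 32.5-fold [19.8 to 56.9] and 28.4-fold [17.4 to 49.1] that in Ery 1. In Ery 2 no UMI was found in library 1 and 2 were found in library 2, a further difference that was at least 5.27-fold in library 1 and 8.44-fold [2.02 to 75.0] in library 2. Cnrip1 was thus the 1 gene of the 6 that was at least 2-fold lower in Ery 2 than in Ery 1 in both libraries, against 9.05% of genes.

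At equal depth, 21.3% [16 to 27.5] and 19.2% [14.1 to 25.3] of HPSC cells had a Cnrip1 UMI, against 0.800% and 1.67% of Ery 1 cells. The unthinned shares in HPSC were 50.7% and 41.3%. In granulocytic cells none of 136 and 130 thinned cells had a Cnrip1 UMI, which allows shares of up to 2.21% and 2.31%. At full depth 2 of 157 and 5 of 130 granulocytic cells had one, and the level was 1.06 CPM [0.128 to 3.82] and 3.16 [1.16 to 6.89]. The steps after Ery 2 held 0 to 3 Cnrip1 UMIs each in either library. Part of Cnrip1 overlaps Plek on the other strand, and whether counting used strand is not given in the sources used here. Of the 7 genes for cannabinoid receptors and their enzymes, only Mgll, a lipase that breaks down the cannabinoid 2-arachidonoylglycerol, reached 20 CPM at a step in each library, and it was highest in Ery 5 (125 and 57.5 CPM).

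Zfp36l2 encodes a zinc finger protein that binds AU-rich elements of messenger RNAs and speeds their decay, and lies on chromosome 17 at 84183931 to 84187947 on the minus strand. Its level was 193 CPM [179 to 209] and 162 [148 to 177] in HPSC. It was 77.6 and 71.4 CPM in Ery 1 and 39.5 and 38.8 in Ery 2. Unlike the abrupt loss of Cnrip1, the decline of Zfp36l2 was graded, with HPSC 2.49-fold [2.24 to 2.77] and 2.27-fold [2.02 to 2.55] above Ery 1, and Ery 1 1.96-fold [1.73 to 2.23] and 1.84-fold [1.61 to 2.1] above Ery 2. Later steps went from 32.9 and 28.0 CPM in Ery 3 to 17.6 and 7.67 CPM in Ery 6, where free RNA could have given up to 6.70 and 6.21 CPM, close to the whole level in library 2. The thinned share of cells with a UMI was 55.5% and 40.4% in HPSC, 25.3% and 25.1% in Ery 1, and 5.61% and 2.64% in Ery 6.

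Its relative Zfp36, which destabilizes the same class of messenger RNAs, was also highest in HPSC, at 49.0 and 36.8 CPM against 8.51 and 4.42 in Ery 1. The other 2 of the 4 measured ZFP36 family genes did not reach 20 CPM at a step in both libraries. The CCR4-NOT complex is the deadenylase that ZFP36 proteins recruit to their targets. All 10 of its measured subunit genes reached 20 CPM. In both libraries 4 of the 10 were highest in HPSC and 4 in Ery 1, 8 with the same step in both. Of the 5645 genes, 32.4% were highest in HPSC and 27.3% in Ery 1, so these counts are near the share of all genes. The Zfp36l2 locus overlaps an annotated antisense transcript.

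Nr3c1 encodes the glucocorticoid receptor, a hormone-activated transcription factor, and lies on chromosome 18 at 39410545 to 39519421 on the minus strand. HPSC held 6.38 CPM [4.0 to 9.66] and 7.36 [4.67 to 11]. Ery 1 held 27.0 CPM [23.9 to 30.5] and 28.0 [24.7 to 31.6], from 267 and 260 UMIs. Ery 1 was therefore 4.24-fold [2.74 to 6.88] and 3.80-fold [2.48 to 6.11] above HPSC. It was also 1.83-fold [1.48 to 2.26] and 1.92-fold [1.55 to 2.39] above Ery 2, where Nr3c1 stood at 14.8 and 14.6 CPM. The gene kept a lower level through Ery 5 (10.3 and 5.63 CPM) and was lower again in Ery 6 (2.64 and 1.51 CPM), where free RNA could have given up to 2.05 and 1.42 CPM, so that no Nr3c1 clearly above free RNA was detectable in Ery 6. Ery 5 was 3.90-fold [2.03 to 7.79] and 3.72-fold [1.97 to 7.37] above Ery 6, and Nr3c1 was the 1 gene of the 6 at least 2-fold lower in Ery 6 than in Ery 5 in both libraries, against 19.6% of genes.

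Counts of Nr3c1 were small: at 3600 UMIs per cell, 9.87% and 8.08% of Ery 1 cells had a UMI, against 48.3% and 46.8% at full depth. In Ery 6 the thinned shares were 1.12% and 0.765%. Of 19 measured genes for the receptor, its chaperones, its coregulators and its targets, 9 reached 20 CPM at a step in each library. Besides Nr3c1, the chaperone genes Hsp90aa1, Fkbp4, Ptges3 and Stip1 were highest in Ery 1. With Nr3c1 these are 5 of the 9, beside 27.3% of the 5645 genes. Hsp90aa1 stood at 3657 and 3686 CPM in Ery 1, and Fkbp4, a receptor co-chaperone, at 652 and 671. Hsp90ab1, the corepressor gene Ncor1 and the hormone-induced Tsc22d3, 3 of the 9, were highest in HPSC, beside 32.4% of the 5645 genes. Tsc22d3 stood at 25.5 and 25.6 CPM there and at 6.68 and 6.57 in Ery 1, the opposite order to Nr3c1 itself. Dusp1, a phosphatase gene that the hormone induces, was highest in Ery 5 at 189 and 94.9 CPM.

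Cited4 encodes a transcriptional coactivator of the CITED family, which has no DNA-binding domain of its own and acts through the acetyltransferases CBP and p300. The gene is short and lies on chromosome 4 at 120666572 to 120667820 on the plus strand. The 250 bases before its RefSeq start, at chr4:120666313-120666562 (GRCm38.p6, plus strand), are shown because, of the 6 genes, Cited4 was the 1 that both was higher in Ery 1 than in HPSC and had an entry in the table of start regions. Capitals mark matches to CCAAT and TATAAA.
Cited4 start region: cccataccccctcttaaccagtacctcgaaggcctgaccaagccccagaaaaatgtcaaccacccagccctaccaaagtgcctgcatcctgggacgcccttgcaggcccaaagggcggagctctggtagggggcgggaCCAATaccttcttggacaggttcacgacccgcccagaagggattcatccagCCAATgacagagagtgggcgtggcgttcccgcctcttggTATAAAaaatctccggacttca
CCAAT occurred at positions -112 to -108 and -61 to -57 before the start, and TATAAA at -22 to -17. Over both strands, CCAAT was found in 33.8% of 32851 RefSeq start regions of the same length and TATAAA in 12.4%. CCNCNCCC, the core letters of a Krüppel-like factor site, matched the minus strand at -122 to -115 and -46 to -39, and 45.9% of start regions held it. The GATA-type words AGATAA and TGATAA, which 9.99% and 7.94% of start regions hold, were not in these letters. A match is a description of the sequence, not of binding. Among the 6 genes, only Cited4 and Cnrip1 had an entry in the table.

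Cited4 RNA stood at 26.1 CPM [21.0 to 32.1] and 30.1 [24.3 to 36.8] in HPSC. It was at 469 and 420.0 CPM in Ery 1, which was 18.0-fold [14.6 to 22.4] and 14.0-fold [11.4 to 17.3] higher. The highest level was in Ery 2, at 790.5 CPM [772 to 809] and 690.3 [673 to 708], 1.69-fold [1.63 to 1.75] and 1.64-fold [1.58 to 1.71] above Ery 1. Ery 3 followed closely at 759.7 and 614 CPM, and Ery 2 exceeded it by 1.04-fold [1.01 to 1.08] and 1.13-fold [1.08 to 1.17].

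Cited4 was lower in Ery 4 and Ery 5 and higher again in the subcluster Ery 6. Ery 4 held 365 and 264 CPM, and Cited4 was the 1 gene of the 6 at least 2-fold lower there than in Ery 3, against 27.7% of genes. Ery 5 held 125 and 59.9 CPM, at least 2-fold below Ery 4 for both Cited4 and Car1 among the 6, against 19.3% of genes. Ery 6 held 266 and 137 CPM, 2.14-fold [1.90 to 2.40] and 2.28-fold [2.03 to 2.57] above Ery 5. Cited4 was the 1 gene of the 6 at least 2-fold higher in Ery 6 than in Ery 5 in both libraries, against 3.14% of genes. This return belongs to the subclusters as numbered. No rise of that size was seen when cells were ranked by globin, where Ery 5 and Ery 6 cells shared groups, as described with that ranking.

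A UMI of Cited4 was found in 6.64% and 9.13% of thinned HPSC cells, close to the 9.56% and 6.15% in granulocytic cells. It was found in 71.5% and 68.8% of Ery 1 cells and in 92.3% and 86.5% of Ery 2 cells. In HPSC, free RNA could have given up to 9.83 and 21.9 CPM of Cited4. Of the 5 measured CITED family and acetyltransferase genes, 3 reached 20 CPM: Cited4, Cited2 and Crebbp. Cited2 was highest in HPSC among the steps (87.6 and 68.8 CPM) and Crebbp, which encodes CBP, likewise (24.1 and 25.3 CPM).

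Car1, a cytosolic carbonic anhydrase gene of red cells and colon, lies on chromosome 3 at 14766216 to 14808368 on the minus strand, 77.904 kb from Car2. HPSC held 15 and 3 UMIs of Car1, or 4.35 CPM [2.43 to 7.17] and 0.960 [0.198 to 2.81]. Ery 1 held 83.4 CPM [77.8 to 89.3] and 71.6 [66.3 to 77.3]. Ery 1 was thus 19.2-fold [11.6 to 34.4] and 74.6-fold [25.4 to 363] above HPSC. Free RNA could have given up to 2.01 and 3.94 CPM of Car1 in HPSC, so that in library 2 no Car1 beyond that amount was detectable there.

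After Ery 1 the level of Car1 dipped and then reached its highest value. Ery 2 held 69.2 and 45.3 CPM, and Ery 1 exceeded it by 1.20-fold [1.08 to 1.34] and 1.58-fold [1.39 to 1.80]. Ery 3 held 135 CPM [127 to 143] and 90.4 [84.0 to 97.2], 1.95-fold [1.76 to 2.15] and 2.00-fold [1.77 to 2.26] above Ery 2. The margin over Ery 4, at 116 and 74.1 CPM, was only 1.17-fold [1.07 to 1.28] and 1.22-fold [1.10 to 1.35]. Ery 5 held 33.9 and 17.2 CPM, so that Ery 4 stood 3.41-fold [2.77 to 4.24] and 4.30-fold [3.49 to 5.34] above it. Like Cited4, Car1 was higher again in Ery 6, at 71.7 and 25.3 CPM, 2.11-fold [1.69 to 2.66] and 1.47-fold [1.16 to 1.87] above Ery 5. Counted as UMIs per cell without scaling to the total, Car1 was highest in Ery 1 instead, at 2.19 and 1.85 UMIs per cell. An annotated processed pseudogene lies within the Car1 locus on the same strand, so some Car1 reads could have been assigned to it or left out.

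Car1 RNA was unevenly shared among Ery 1 cells. The 38 and 36 Ery 1 cells with most Car1 UMIs, 10% of the cells, held 66.7% and 64.8% of all Car1 UMIs of that step. For Cited4 the same number of cells held 24.7% and 25.1%, and for Car2 24.7% and 24.3%, though both have more UMIs per cell. Zfp36l2, at 2.04 and 1.85 UMIs per cell against 2.19 and 1.85 for Car1, had 28.7% and 29.1%. Car1 was as uneven in later steps, where it had fewer UMIs per cell. The top 10% of cells held 74.1% and 68.8% in Ery 2, 66.8% and 71.1% in Ery 3 and 86.3% and 80.1% in Ery 4. Single Ery 1 cells held up to 49 and 42 UMIs of Car1. At equal depth, 18.9% and 14.2% of Ery 1 cells had a Car1 UMI, against 22.3% and 16.6% in Ery 3 and 1.47% of 136 and none of 130 granulocytic cells, which allows up to 2.31% in library 2.

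Car2, the high-activity cytosolic carbonic anhydrase gene, lies on chromosome 3 at 14886273 to 14900770 on the plus strand. It was already present in HPSC at 492 and 411 CPM, of which free RNA could have given up to 118 and 231. The 21 of 213 and 21 of 208 HPSC cells with most Car2 held 43.9% and 46.8% of its UMIs there. Each of the next steps was higher: 1377 and 1080.4 CPM in Ery 1, 3595 and 2586 in Ery 2 and 6321 and 3994 in Ery 3. Ery 1 was 2.80-fold and 2.63-fold above HPSC. Ery 2 was 2.61-fold [2.56 to 2.66] and 2.39-fold [2.34 to 2.45] above Ery 1. Car2 was the 1 gene of the 6 that was at least 2-fold higher in Ery 2 than in Ery 1 in both libraries, against 2.52% of genes.

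From Ery 3 on, Car2 formed a plateau on which the libraries placed the highest step differently. Library 1 was highest in Ery 6 at 8277 CPM, 1.05-fold [1.04 to 1.06] above Ery 4. Library 2 was highest in Ery 4 at 4067 CPM, 1.02-fold [1.0 to 1.03] above Ery 3. These margins are smaller than the difference between the libraries at any of the late steps. A Car2 UMI was found in 64% and 57.2% of thinned HPSC cells, in 93.3% and 89.7% of Ery 1 cells, and in 35.3% and 31.5% of granulocytic cells. Free RNA was itself rich in Car2, at 4139 and 3119.6 CPM. As UMIs per cell, Car2 was highest in Ery 3, at 65.0 and 50.8.

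Among the 16 measured carbonic anhydrase genes, Car1 and Car2 were the 2 that reached 20 CPM at a step in each library. Of 4 red cell partners in carbon dioxide and bicarbonate transport, 3 reached it. Slc4a1, the band 3 anion exchanger that carries bicarbonate, was highest in Ery 5 at 1872 and 954 CPM. Aqp1, a water channel that also passes carbon dioxide, was highest in Ery 2 at 72.0 and 65.1 CPM, the step of Cited4. Rhag, part of the Rh complex in the red cell membrane, was highest in Ery 6 in library 1 (500.1 CPM) and in Ery 4 in library 2 (254 CPM), the same steps as Car2.

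EryP cells, which carry the embryonic globins, separated the 6 genes into 3 with clear levels and 3 with few or no UMIs. Car2 stood there at 2528 CPM [2428 to 2631] and 1716 [1635 to 1801], 1.84-fold and 1.59-fold above Ery 1 but below each of Ery 2 to Ery 6. Cited4 stood at 367 CPM [330.0 to 408] and 257 [226 to 291], 1.38-fold and 1.88-fold above Ery 6 but below Ery 1, which was 1.28-fold and 1.64-fold higher, and below Ery 2 and Ery 3. Zfp36l2 stood at 35.5 CPM [24.6 to 49.6] and 26.9 [17.6 to 39.5], from 34 and 26 UMIs, and was 2.02-fold [1.33 to 3.01] and 3.51-fold [2.16 to 5.54] above Ery 6 but below Ery 1, which was 2.19-fold and 2.65-fold higher. The counts of Car2 (2422 and 1657 UMIs) and Cited4 (352 and 248) were well above the 325 and 410 UMIs of Car2 and the 27.1 and 38.8 of Cited4 that free RNA could have given.

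Cnrip1 was not found in EryP: 0 UMIs in both libraries allow up to 3.13 and 3.11 CPM, taking 3 counts as the limit. Nr3c1 gave 2 UMIs in library 1 and 0 in library 2. Ery 1 was 13.0-fold [3.55 to 108] above EryP for Nr3c1 in library 1 and at least 9.01-fold in library 2. Car1 gave 17 UMIs (17.7 CPM [10.3 to 28.4]) in library 1, of which 8 were in 1 cell, and 1 UMI (1.04 CPM [0.0262 to 5.77]) in library 2. Free RNA could have given up to 5.52 and 6.98 of these Car1 UMIs. The libraries therefore disagree on whether EryP holds Car1 above that amount. Car1, Cnrip1, Nr3c1 and Zfp36l2 were at least 2-fold lower in EryP than in Ery 1 in both libraries, as were 85.9% of genes. For Cnrip1 this call rests on 0 UMIs. Their limits of 3.13 and 3.11 CPM are above its 1.72 and 1.94 CPM in Ery 1, so no difference from Ery 1 can be read for Cnrip1. In EryP, globin took 76.7% and 82.5% of UMIs, so that on this scale most other genes are low. The order of EryP and Ery 1 without globin is given below, and it reversed for Zfp36l2.

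Globin RNA fills the denominator of CPM in the late steps, so the levels were also computed per 1000000 UMIs other than globin. On that scale Cnrip1, Zfp36l2 and Nr3c1 kept their highest step. Cited4 moved by 1 step, to Ery 3 (902 and 859 CPM against 818 and 746 in Ery 2). Car1 also moved by 1 step, to Ery 4 (182 and 173 CPM against 160.0 and 127 in Ery 3). Car2 no longer formed a plateau but was higher at each step, reaching 19733 and 16428 CPM in Ery 6 in both libraries.

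Other features of the late steps also depended on the denominator. Nr3c1 was not lower in Ery 5 than in Ery 2 without globin (21.0 and 21.1 CPM against 15.3 and 15.8), and its low level in Ery 6 remained (6.28 and 7.04 CPM). Zfp36l2 showed no further steady decline from Ery 2 (40.9 and 41.9 CPM) to Ery 6 (41.9 and 35.7 CPM), with 39.2 and 54.4 CPM in Ery 5. The return of Cited4 in Ery 6 was present on this scale too, at 635 and 635 CPM against 255 and 225 in Ery 5, as was that of Car1, at 171 and 118 CPM against 69.4 and 64.7. In EryP, Zfp36l2 stood at 152 CPM [105 to 213] and 154 [101 to 226] without globin, near its 197 and 167 CPM in HPSC, and Cited4 at 1576 [1415 to 1749] and 1471 [1293 to 1666] was above every definitive step.

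**Figure D2:**
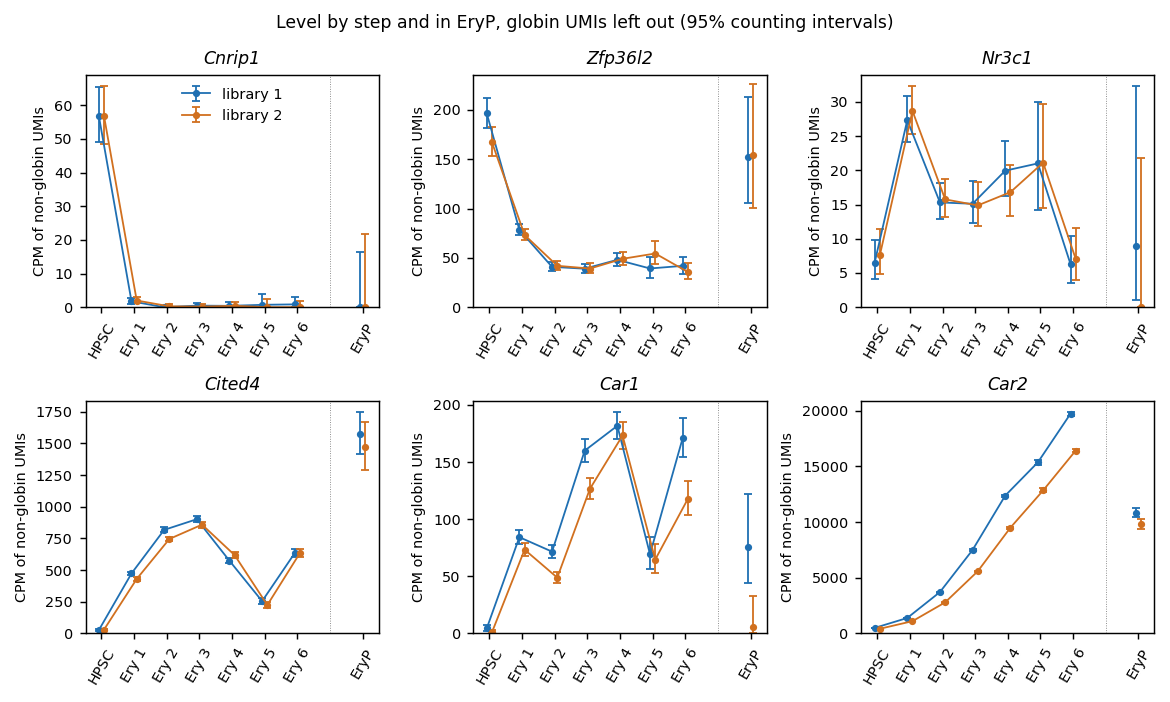
The 6 genes on the scale of counts per 1000000 UMIs other than globin (y axis, linear from 0) at the same 7 steps and in EryP (x axis), with the 2 libraries as points and 95% counting intervals as bars. Car2 is higher at each step up to Ery 6 (19733 and 16428), Cited4 and Car1 are highest at Ery 3 and Ery 4, and Cited4 and Zfp36l2 in EryP stand at 1576 and 1471 and at 152 and 154.

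The subclusters are numbered groups, so the Ery and Eryb cells were also ranked by the share of adult globin in their UMIs and divided into 10 equal groups in each library. The order in which the genes reached their highest level was similar. The globin that ranks the cells is also in the denominator of CPM, which lowers the CPM of other genes along the ranking. Values without globin are therefore given as well. Cnrip1, Zfp36l2 and Nr3c1 were highest in the first group, whose cells had a median adult globin share of 0.787% and 0.947% and were mostly Ery 1. In the last group Nr3c1 was at 0.472 and 0.798 CPM, against 24.2 and 26.0 in the first. Cited4 was highest in the second group, at 802 and 694 CPM, and was lower in each later group, down to 129.7 and 68.9 CPM in the last. Without globin, Cited4 was highest in the third group, at 891 and 803 CPM, and stood at 379 and 438 CPM in the last. Car1 was highest in the fourth group, at 197 and 108 CPM against 77.2 and 61.7 in the first. In the last 3 groups it went from 45.5 to 53.8 CPM in library 1 and from 23.2 to 14.9 in library 2. Without globin, Car1 went from 94.4 to 157 CPM in library 1 and from 92.1 to 94.6 in library 2 over these groups. The higher levels of Cited4 and Car1 in Ery 6 than in Ery 5 thus had no counterpart of that size here. Ery 5 and Ery 6 cells shared groups in this ranking. Car2 was highest in the seventh group of library 1 (8309 CPM) and the fourth of library 2 (4211 CPM), and on the scale without globin in the last group of both (19881 and 16807 CPM).

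**Figure D3:**
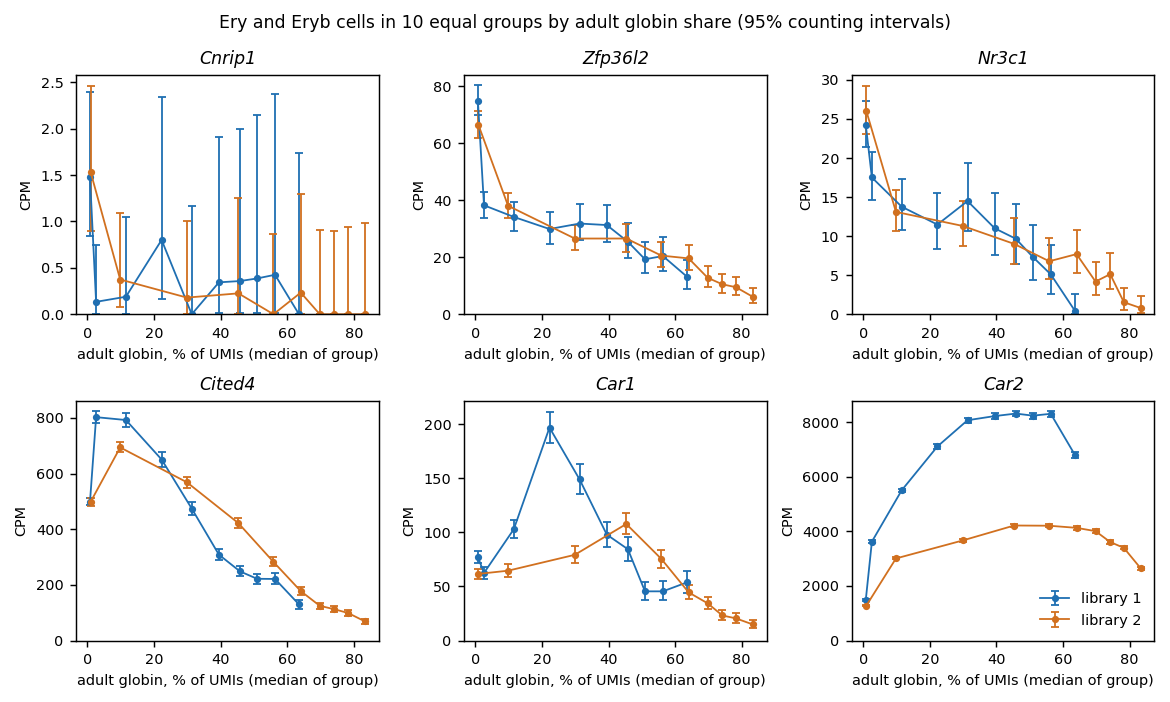
Level of each gene (y axis, CPM, linear from 0) in 10 equal groups of Ery and Eryb cells ranked by adult globin share (x axis, median percent of UMIs in the group); points are groups, colors the 2 libraries and bars 95% counting intervals. On this scale, with globin in the denominator, Zfp36l2 and Nr3c1 decline from the first group. Cited4 is highest in the second (802 and 694 CPM) and Car1 in the fourth (197 and 108 CPM). Without globin, not drawn here, Cited4 was highest in the third group and Zfp36l2 showed no steady decline after the second.

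Single cells were also counted at 3600 UMIs each. Cells with a UMI of Cnrip1 or Zfp36l2 and none of Cited4 made up 61.6% and 46.6% of HPSC, 9.33% and 9.47% of Ery 1 and 0.746% and 1.31% of Ery 2. Cells with Cited4 and neither of the other two made up 2.84% and 6.73% of HPSC, 54.7% and 52.1% of Ery 1 and 80.6% and 75.6% of Ery 2. All cells of library 2 had at least 3600 UMIs, but in library 1 thinning left out 155 of 557 Ery 2, 237 of 1218 Ery 6, 33 of 79 Mk and 21 of 157 G cells, so thinned shares of these describe the deeper cells.

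Within Ery 1, cells were divided by whether a UMI of a gene was present after thinning, and the full counts of other genes were summed on each side. Cells of 1 library are not replicates, and these ratios describe the cells at hand. The 71 and 51 cells with Car1 differed from the 304 and 308 without it in several landmark genes, while Nr3c1 and Cnrip1 had ratios whose intervals held 1 in both libraries. Gata2, a transcription factor of stem and early progenitor cells, stood at 66.9 and 44.8 CPM with Car1 and at 23.6 and 27.2 without. Itga2b, the integrin chain CD41, stood at 36.5 and 31.5 against 19.1 and 20.05 CPM, and Myb, a factor that keeps progenitors dividing, at 125 and 138 against 104 and 95.2 CPM.

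Klf1, Epor and Hemgn were lower in the cells with Car1. Klf1, the master activator of erythroid genes, stood at 359 and 349 CPM in the cells with Car1 and at 456 and 431 in those without. The erythropoietin receptor gene Epor stood at 105 and 109.6 against 134 and 132 CPM, and Hemgn, a nuclear protein of erythroid cells, at 58.4 and 38.2 against 83.1 and 69.9 CPM. Cited4 was lower in the cells with Car1 too, at 370.3 and 379 against 488 and 426 CPM.

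Cited4 and Car2 divided Ery 1 in the opposite direction from Car1. The 107 and 112 Ery 1 cells without Cited4 held 127 and 104 CPM of Car1, against 69.0 and 59.9 in the cells with it, a ratio of 0.545 [0.473 to 0.630] and 0.577 [0.492 to 0.677] with over without. They also held more Gata2, at 76.1 and 63.8 against 15.8 and 17.0 CPM, and less Klf1, at 368 and 322 against 464 and 456 CPM. The 25 and 37 cells without Car2 held 157 and 296 CPM of Car1, against 79.3 and 52.6 in the cells with Car2. The former values rest on 80 and 215 Car1 UMIs. Single Ery 1 cells held up to 49 and 42, so a few cells could weigh heavily in them. In both libraries, more Car1 within Ery 1 thus went with more Gata2 and with less Klf1, Cited4 and Car2. Within Ery 2, the 55 and 43 cells with Car1 held more Car2 instead, at 4083 and 2859 against 3555 and 2557 CPM. For Cited4 in Ery 2 the ratio with over without Car1 was 1.12 [1.05 to 1.20] and 0.935 [0.855 to 1.02].

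Zfp36l2 divided Ery 1 by Gata2 in the same direction as Car1: Gata2 stood at 48.3 and 44.6 CPM in the cells with it and at 25.7 and 24.8 in those without. Beside these values, Cpa3, a protease gene of mast cells and basophils that early progenitors also hold, stood at 24.3 and 14.9 CPM in the Ery 1 cells with Car1 and at 6.20 and 6.19 in those without. Over the 3 mast cell and basophil markers together, with Ms4a2 and Mcpt8 at 0 to 9 UMIs on either side, the sums were 24.3 and 17.4 CPM with Car1 and 6.32 and 6.93 without. The part of these cells in the result was not tested.

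**Figure D4:**
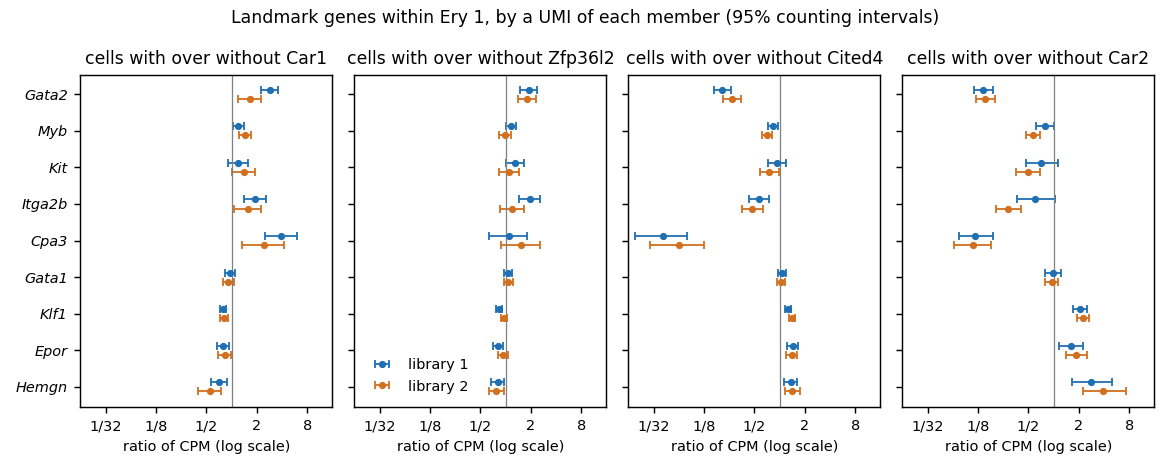
Ratio of CPM (x axis, log scale) of 9 landmark genes (y axis) in Ery 1 cells with a UMI of Car1, Zfp36l2, Cited4 or Car2 over Ery 1 cells without it, with the 2 libraries as points and 95% counting intervals as bars; the vertical line marks equality. Gata2 and Cpa3 lie to the right of the line for Car1 and far to its left for Cited4 and Car2, and Klf1 the reverse.

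In HPSC, a UMI of Car2 marked the cells with more erythroid RNA. Those cells held 36.4 and 43.3 CPM of Cited4, against 9.80 and 15.9 without Car2. Klf1 stood at 49.1 and 49.5 against 12.1 and 17.9 CPM. Cnrip1 was higher there as well, at 67.5 and 74.8 against 37.7 and 33.8 CPM. Divided by a UMI of Cnrip1 instead, HPSC cells held 24.8 and 9.24 CPM of Cited4 with it and 26.4 and 34.5 without. Car2 then stood at 751 and 423 CPM with Cnrip1 and 433 and 408 without. The relation of Cnrip1 to the erythroid genes within HPSC thus depended on the split and the library. Adult globin, which is also in free RNA, was at 19589 and 44116 CPM in HPSC cells with Car2 and at 8434 and 9826 in those without, and its part in the result was not tested.

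The 6 genes were also found outside the erythroid steps. Cnrip1 was at 72.5 CPM [43.7 to 113] and 82.9 [60.9 to 110.3] in endothelial cells, from 19 and 47 UMIs in 12 of 20 and 18 of 26 cells, within the counting error of its level in HPSC in library 1. Zfp36l2 was at 121 and 96.0 CPM in Mo/KC and at 66.1 and 80.2 in G. Nr3c1 stood at 19.6 and 17.9 CPM in G, 20.6 and 22.6 in Mo/KC and 21.9 and 16.1 in Hepa, each overlapping in interval with the 21.1 and 21.5 CPM of Ery as a whole. Cited4 was at 414 and 395 CPM in Mk, where 56.5% and 66.1% of thinned cells had a UMI, and at 24.3 and 22.7 in G. In Hepa, Cited4 was at 153 CPM [124 to 187] and 268 [233 to 306], of which free RNA could have given up to 8.21 and 12.6. There 3 of 33 and 3 of 31 cells held 51.0% and 46.1% of the Cited4 UMIs. Cited2, the relative of Cited4, was at 344 and 314 CPM in Mk. Car2 was at 759 and 862 CPM in Hepa and 558 and 865 in Mk. Free RNA could have given up to 98.5 and 133 CPM of it in Hepa and 196 and 192 in Mk. In Hepa, 3 of 33 and 3 of 31 cells held 57.6% and 34.8% of the Car2 UMIs. In Mk, 8 of 79 and 6 of 56 cells held 55.6% and 52.0%. Car1 was at 20.8 and 26.6 CPM in Mk and, apart from 19.1 CPM from 5 UMIs in EC of library 1, at most 9.88 CPM in G, Mo/KC, Hepa and EC of either library.

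**Figure D5:**
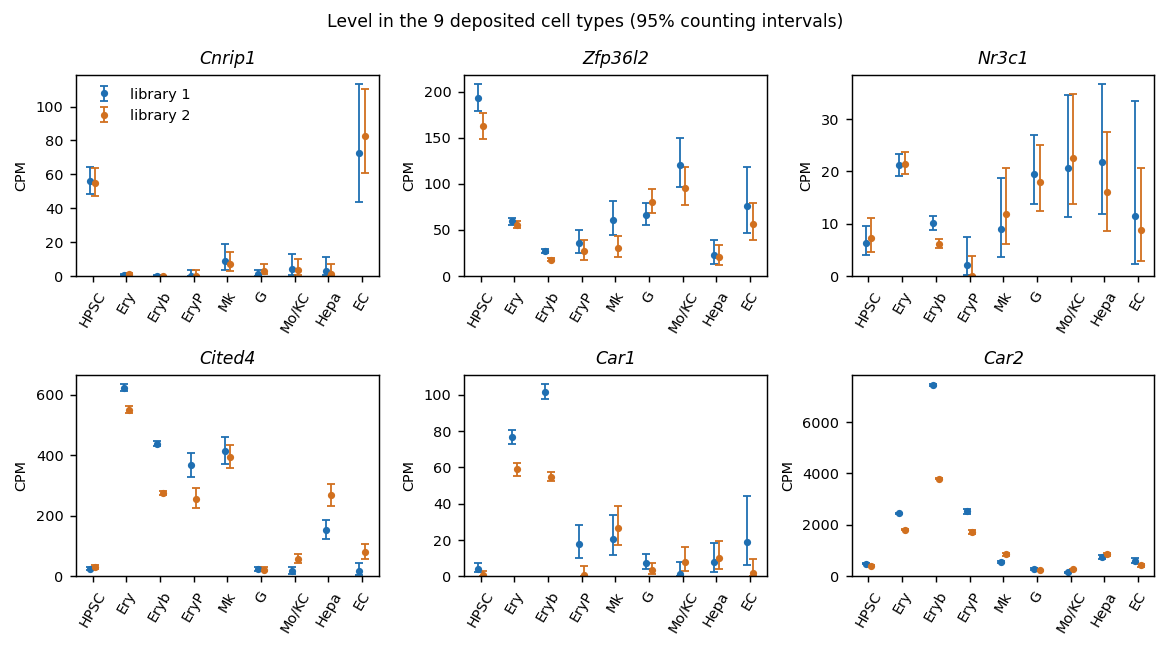
Level of each gene (y axis, CPM, linear from 0) in the 9 deposited cell types (x axis), with the 2 libraries as points and 95% counting intervals as bars. Cnrip1 is high in HPSC and EC, Zfp36l2 in HPSC and Mo/KC, Cited4 in Ery, Eryb, EryP and Mk, and Car2 in Eryb (7433 and 3795 CPM). Cited4 is also present in Hepa (153 and 268 CPM).

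The likeness of other genes to each of the 6 was measured as the Pearson correlation of log2(CPM + 10) over the 7 steps, taking the lower value of the libraries. It is a description over 7 points that share libraries and depth. Abcb4, a phospholipid transporter gene, was most like Car1 (0.983 and 0.947), followed by Pklr, the red cell pyruvate kinase gene, and Smim1, a blood group gene. Asns, the asparagine synthetase gene, was most like Cited4 (0.975 and 0.966), again followed by Pklr and Abcb4. Prdx2, the red cell peroxiredoxin gene, was most like Car2 (0.995 and 0.997), then Nxpe2 and the heme enzyme gene Urod. For Nr3c1 these were Golm1 (0.942 and 0.976), Slc16a3 and Ttll12, for Zfp36l2 Adgrg1 (0.998 and 0.998), Phf20 and Jmjd1c, and for Cnrip1 Ccnd1, Cd93 and Ptk7. Among the 6 genes themselves, Car1 and Cited4 were the most alike (0.922 and 0.898).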

How the data were processed

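Per the labels, 10x reads were aligned to mm10 and counted with Cell Ranger (2.1.1 in the submitters' processing notes), and cells were clustered by the authors with Seurat (3.2.0), which kept cells with at least 200 genes and genes in at least 3 cells. The deposited matrices hold raw UMI counts, and the authors' cell table gave the cluster names, which were used as deposited, and its other columns were not used. The strand setting of the counting is not given in the sources used here. Sorting had removed cell doublets from the suspension before the droplet run. Droplets that captured 2 cells after sorting were not looked for. The members and all gene lists were chosen with earlier results of these data known. UMIs were summed per cluster and library with pandas 2.3.3 and numpy 2.4.6 under Python 3.11.15; scipy 1.17.1 gave the intervals and matplotlib 3.10.9 the plots. Intervals were exact: Poisson for levels, Clopper-Pearson for shares, conditional binomial for ratios. Thinning drew 3600 UMIs per cell without replacement (seed 1). A count of 0 was bounded at 3 counts. Genes named as alike were the 3 with the highest correlation. Scripts were tested on simulated data. Gene positions are from GENCODE on GRCm38. Other alternatives are given in the closing section.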

Additional observations from a re-analysis of the deposited data

How the results depend on the processing

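No paired analysis was possible because all cells come from 1 liver and no groups of samples were compared. Limits: counting error is the only error these intervals cover, a step is a cluster of the same counts, and folds that rest on few UMIs (Cnrip1 after Ery 1, Nr3c1 in Ery 6 and EryP) are imprecise. Leaving out a library leaves the other library's own value, which with 2 libraries always lies within their SD of the mean and so says nothing of stability: Car1 in EryP ran from 1.04 to 17.7 CPM and Nr3c1 from 0 to 2.09, and without library 2 the highest step of Car2 was 6 (Ery 6) instead of 4 (Ery 4). Summing both libraries or taking cells of at least 4400 UMIs moved no value they were run on by more than the SD between libraries. The same held for subtracting free RNA of 10% or leaving out the 5% of cells with the most UMIs. That SD was wide where UMIs were few. Car1 in EryP, at 9.39 CPM with an SD of 11.8, was 2.91 without those cells and 5.95 with free RNA subtracted. Nr3c1 in EryP went from 1.04 CPM, with an SD of 1.48, to 0.0059 with free RNA subtracted. With 20 globin groups, the middle of the highest group went from 5% to 2.5% of cells for Cnrip1, Nr3c1 and Zfp36l2. It is the first group in both divisions, and the other genes kept their value. The highest step of Car2 was also 6 with a mean over cells, without globin and when cells needed 1000 detected genes and a mitochondrial share under 10%. Without globin the highest step was 4 for Car1 and 3 for Cited4, and as mean UMIs per cell, an alternative chosen after seeing the data, it was 1 for Car1. Car2 is at step 4 in the mean of the libraries. Levels in EryP without globin were 41.0 CPM for Car1 (9.39 with globin), 10334 for Car2 (2122), 1523 for Cited4 (312), 4.48 for Nr3c1 (1.04) and 153 for Zfp36l2 (31.2). The filter on genes and mitochondrial UMIs, which left 13 and 11 EryP cells, gave 49.9 CPM for Car1 and 3378 for Car2. Without globin the log2 ratio of Ery 2 to Ery 1 was 0.79 for Cited4 and -0.85 for Nr3c1, and that of Ery 3 to Ery 2 was 1.27 for Car1, 1.01 for Car2, -0.051 for Nr3c1 and -0.083 for Zfp36l2, and it reversed for Cited4, to 0.17 from -0.11, because the denominator loses globin. The share of Ery 1 cells with a UMI, in the order Car1, Car2, Cited4, Cnrip1, Nr3c1 and Zfp36l2, was 16.6%, 91.5%, 70.1%, 1.24%, 8.97% and 25.2% at 3600 UMIs. It was 47.2%, 99.0%, 93.7%, 4.10%, 47.5% and 80.1% without thinning. At 7200 UMIs it was 26.1%, 97.6%, 86.4%, 19.1% and 42.8% for the same genes without Cnrip1, which moved less than the spread between libraries. With at least 2 UMIs required it was 7.06%, 79.7%, 40.7%, 0%, 0.690% and 4.35%.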
